A study of Mus musculus with 6 samples.

Results

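Cells take up iron and copper, store them, and pass them on through a small set of proteins, and 10 genes of that set were followed here in mouse RPE (retinal pigment epithelium), the dark cell layer that lies behind the photoreceptors and serves them. They were chosen by gene name from the 54532 genes of the deposited count table: the iron carrier Trf with its receptor Tfrc, the iron transporter Slc11a2 (DMT1), the ferritin subunits Fth1 and Ftl1, the iron exporter Slc40a1 (ferroportin), the copper-dependent ferroxidases Cp, Heph and Hephl1, and the copper transporter Atp7a. All 10 were found in the table, and 9 of them passed the filter on low counts, Hephl1 being the exception. RNA was sequenced from 3 Abca4-/- mice (Abca4KO, the Jackson line Abca4tm1Ght/J) and 3 wild-type (WT) mice of strain 129S1/SvlmJ, with 1 library per mouse. Both lines carried the Leu450 form of Rpe65 and lived on a standard diet under a 12-h light cycle, and the tissue was taken 5 h after the lights came on. Genotype and line change together, so a difference that comes from the deleted gene and one that comes from the line cannot be told apart. The sources used here give no age.

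Iron circulates bound to transferrin, enters cells through the transferrin receptor, leaves the endosome through DMT1, is held in ferritin shells built of heavy and light chains, and leaves the cell through ferroportin. Ferroportin releases ferrous iron, which the ferroxidases ceruloplasmin (Cp) and hephaestin (Heph) oxidise so that transferrin can bind it. Both enzymes need copper, which ATP7A pumps into the secretory pathway where such enzymes are loaded, so the copper pump and the iron exit route are linked. In the RPE, mice that lack both ceruloplasmin and hephaestin are known to build up iron, and RPE also makes transferrin of its own.

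Several of these messages carry an iron-responsive element, a short hairpin that iron regulatory proteins bind when iron is scarce. Bound in the 5′ UTR, the proteins block translation, as in ferritin, and bound in the 3′ UTR of Tfrc they protect the message from decay, so that transcript counts can follow this control for Tfrc but do not read translation of ferritin. A search of the GENCODE M21 coding transcripts for the core (C, any 5 bases, CAGTGN, then 5 bases that pair with the first 5, G-T pairs allowed, sense strand) found it in 4 of the 10 genes, against 294 of 21877 coding genes (1.34%) overall. Within the first 300 bases of a transcript, 37 of 21746 genes (0.170%) held a match, and Fth1, Ftl1 and Slc40a1 were among them. Of all 21877 coding genes, 1 held 4 or more matches in a transcript, and that gene is Tfrc. Transcript lengths differ, so the share over whole transcripts is a rough comparison only. The element was already known in ferritin and Tfrc messages, and no match, that of Slc40a1 included, is given as a finding of the search. The sites are shown because they divide the set into messages with the hairpin at the start, messages with it at the end, and messages where this pattern was not met. The 30 bases around each core are printed in mRNA sense, with the bulged C and the loop in capitals.
Fth1 5′ UTR: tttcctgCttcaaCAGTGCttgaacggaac
Ftl1 5′ UTR: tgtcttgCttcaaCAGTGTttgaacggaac
Slc40a1 5′ UTR: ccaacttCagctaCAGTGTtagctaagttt
Tfrc 3′ UTR, site 1: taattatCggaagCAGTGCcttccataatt
Tfrc 3′ UTR, site 2: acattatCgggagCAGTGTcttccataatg
Tfrc 3′ UTR, site 3: tctatatCggagaCAGTGAtctccatatgt
Tfrc 3′ UTR, site 4: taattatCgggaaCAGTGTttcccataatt
In mm10 (GRCm38), the Fth1 site lies at chr19:9982731-9982760 on the plus strand, the Ftl1 site at chr7:45459779-45459808 on the minus strand and the Slc40a1 site at chr1:45925465-45925494 on the minus strand. The Tfrc sites lie on the plus strand at chr16:32631218-32631247, chr16:32631597-32631626, chr16:32631662-32631691 and chr16:32631709-32631738. A match is a description of the letters, and no match in the other 6 genes says only that these letters were not met in their annotated transcripts.

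The libraries held 17047286 to 19841307 counts each. Abca4 itself fell in the Abca4KO libraries, at 32.6, 39.1 and 36.8 CPM, against 955, 932 and 968 CPM in the WT libraries (log2 fold change -4.72, SE 0.10, edgeR quasi-likelihood adjusted p = 4.48e-06), so each library matched its label. CPM are counts relative to library size (the usual count-per-million scale), adjusted with trimmed mean of M-values (TMM) factors. All 12 RPE markers examined were detected, with summed levels of 39439 to 41596 CPM in Abca4KO and 33165 to 42796 CPM in WT libraries. Markers of neighbouring cells were present too: the largest of those sums was Müller glia and astrocyte markers, at 7995 to 10333 CPM in Abca4KO and 8537 to 8996 CPM in WT, a list that is led by Apoe and had 3 of 10 markers with a positive log2 fold change. Endothelial markers were the list with the most members at an unadjusted edgeR p under 0.05, 7 of 12 higher and 0 lower in Abca4KO. All 12 had a positive log2 fold change (median 0.56), none was at 0, and their sums were 749.3, 784.1 and 1117 CPM in Abca4KO libraries 1, 2 and 3, against 560.6, 756.2 and 463.8 CPM in WT libraries 1, 2 and 3. The part of endothelial cells in the genotype differences of the iron and copper genes was not tested. In such bulk samples, fewer cells of a type and less RNA per cell cannot be told apart. Xist lay at 0.203 to 0.980 CPM in Abca4KO and 0.322 to 0.708 CPM in WT while the Y-linked Ddx3y exceeded 126 CPM in every library, so the X-linked genes below were read from libraries alike in this respect. WT 2 stood apart from the rest, with a chi-square per degree of freedom over genes of 39.5 to 57.2 against each other library, where the other pairs gave 12.6 to 46.0. Of 17340 tested genes, 8 (0.0461%) had an adjusted p under 0.05, 6 of them higher (0.0346%) and 2 lower (0.0115%) in Abca4KO.

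None of the 9 tested iron and copper genes was among them, and DESeq2, run as an alternative, called 1, Atp7a. At an unadjusted p under 0.05 in edgeR's quasi-likelihood test, 4 of the 9 differed between genotypes, against 7.02% of all tested genes: Atp7a, Heph and Cp were lower in the Abca4KO libraries, where 3.87% of all genes met that mark as lower, and Fth1 was higher, where 3.15% did. In 5 of the 9, the 3 libraries of one genotype all lay beyond the 3 of the other (3 lower, Atp7a, Heph and Cp, and 2 higher, Fth1 and Slc11a2), against 12.8% of all tested genes (6.85% lower and 5.93% higher). The median log2 fold change of the 9 was 0.14, beside -0.01 for all tested genes. The counts stand above the background shares, but the smallest adjusted p in the set was 0.439. The genes were chosen with earlier results of these data known, so an excess over those shares cannot be told apart from the choice. With 9 genes the counts describe these libraries only.

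**Figure D1:**
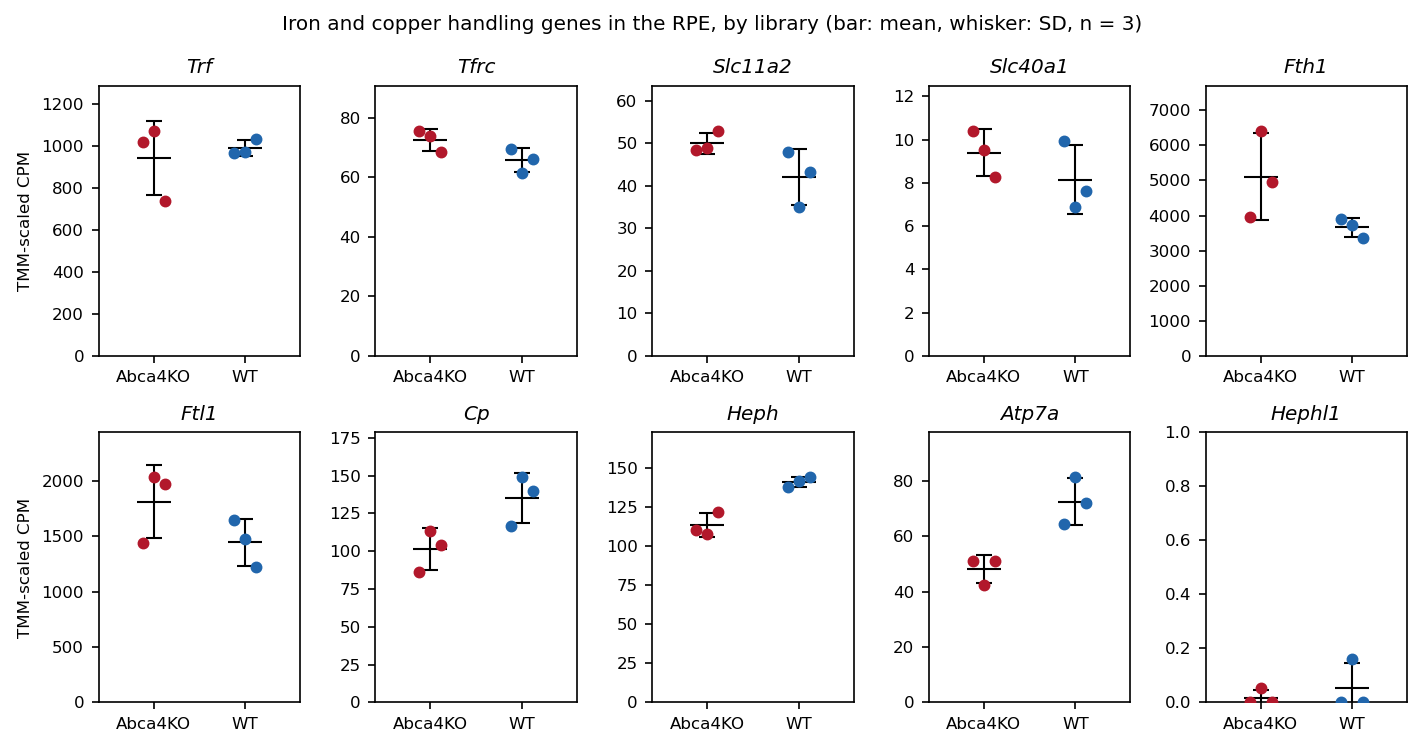
Each panel shows 1 gene, with TMM-scaled CPM on the vertical axis from 0, the 3 Abca4KO libraries (red) on the left and the 3 WT libraries (blue) on the right, the horizontal bar at the mean and whiskers of 1 SD. Cp, Heph and Atp7a have every Abca4KO point below every WT point, Fth1 and Slc11a2 every Abca4KO point above, though by a narrow margin, and Hephl1 is near 0 in all 6.

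The copper pump gene Atp7a had the smallest p of the set. ATP7A moves copper from the cytosol into the trans-Golgi network and out of the cell, and supplies copper enzymes. Atp7a measured 51.1, 42.6 and 51.0 CPM in Abca4KO libraries 1, 2 and 3, against 64.3, 81.3 and 72.1 CPM in WT libraries 1, 2 and 3. The groups did not overlap, and Abca4KO 2 was the lowest and WT 2 the highest library. The mean was 48.2 ± 4.89 CPM in Abca4KO and 72.6 ± 8.5 CPM in WT (SD, n = 3 each), a level 0.664 times that of WT. The log2 fold change was -0.59 (SE 0.12, 95% interval -0.87 to -0.31; edgeR unadjusted p = 0.00137, adjusted p = 0.439). Without WT 2 the edgeR log2 fold change was -0.50 (unadjusted p = 0.00218). By unadjusted p the gene stood 54th of the 17340. DESeq2 gave it an adjusted p of 0.0147, where it called 106 genes in all, and over all other settings tried the adjusted p ran from 0.0147 to 0.976. Atp7a (ENSMUSG00000033792) lies at chrX:106027276-106124926 on the plus strand, and no other gene of the table overlaps it.

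Heph, the membrane-bound ferroxidase that works beside ferroportin, had the tightest values of the set in WT. It measured 110.1, 107.5 and 121.9 CPM in Abca4KO libraries 1, 2 and 3, against 137.4, 141.7 and 143.8 CPM in WT libraries 1, 2 and 3. The WT libraries varied by 2.31% (coefficient of variation) and the Abca4KO libraries by 6.78%, and every Abca4KO library lay below every WT library. The mean was 113.2 ± 7.67 CPM in Abca4KO and 141.0 ± 3.25 CPM in WT (SD, n = 3 each), 0.803 times the WT level. The log2 fold change was -0.32 (SE 0.08, 95% interval -0.50 to -0.14; edgeR unadjusted p = 0.00412, adjusted p = 0.545). The unadjusted p remained under 0.05 in all 15 other settings tried. Heph (ENSMUSG00000031209) lies at chrX:96455359-96574485 on the plus strand, 9.45 Mb from Atp7a. The processed pseudogene Rpl17-ps8 within its span held 154 counts over the 6 libraries and shares no annotated exon base with it, and Hsf3 on the opposite strand held 40 and shares 29 exon bases.

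Cp, the ferroxidase that is secreted or held at the membrane by a lipid anchor, followed the same order. It measured 86.2, 113.6 and 104.0 CPM in Abca4KO libraries 1, 2 and 3, against 116.9, 148.8 and 140.1 CPM in WT libraries 1, 2 and 3. The groups did not overlap, but Abca4KO 2 and WT 1 lay close together. The mean was 101.2 ± 13.9 CPM in Abca4KO and 135.2 ± 16.5 CPM in WT (SD, n = 3 each), 0.749 times the WT level (log2 fold change -0.42, SE 0.13, 95% interval -0.73 to -0.11; edgeR unadjusted p = 0.0146, adjusted p = 0.616). Cp is an acute phase gene, and WT 2 had both the highest Cp and a summed level of acute phase and interferon genes of 2013 CPM. That sum was 210.3 to 316.8 CPM in Abca4KO and 189.4 and 219.6 CPM in the other 2 WT libraries. WT 3 had the lowest sum, 189.4 CPM, beside a Cp of 140.1 CPM. The part of an acute phase response in the Cp values was not tested. Without WT 2 the edgeR log2 fold change of Cp was -0.34 (unadjusted p = 0.0324). Abca4KO 1 had the lowest Cp and the highest rod marker sum, at 3451 CPM. Without both WT 2 and Abca4KO 1 the edgeR log2 fold change of Cp was -0.25 (unadjusted p = 0.0570). Cp (ENSMUSG00000003617) lies at chr3:19957054-20009145 on the plus strand, 102 Mb from Abca4 on the same chromosome. It shares 108 exon bases with Hps3 on the opposite strand, which held 10791 counts in all, and since strand use in the counting is not stated, the Cp count is uncertain over that stretch. Hps3 itself measured 99.1, 69.2 and 88.4 CPM in Abca4KO and 111.6, 93.8 and 114.2 CPM in WT.

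Summed over Cp and Heph, ferroxidase transcripts amounted to 196.3, 221.1 and 225.9 CPM in Abca4KO libraries 1, 2 and 3, against 254.3, 290.5 and 283.9 CPM in WT libraries 1, 2 and 3. As both genes were lower without overlap, the sums could not overlap either. The balance of the pair overlapped between genotypes, with Heph at 1.13 ± 0.169 times the CPM of Cp in Abca4KO and 1.05 ± 0.114 times in WT (SD, n = 3 each; a ratio of CPM not corrected for length). The third ferroxidase gene, Hephl1 (zyklopen; ENSMUSG00000031936, chr9:15051841-15112108, minus strand), had 1 count in Abca4KO 2, 3 counts in WT 2 and 0 in each of the other 4 libraries. A count of 3 equals 0.151 to 0.176 CPM of unscaled library size, so Hephl1 was at or under that floor throughout and no fold change is given.

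Both ferritin transcripts had positive log2 fold changes. Fth1, the heavy chain that carries ferritin's own ferroxidase site, measured 3948, 6411 and 4961 CPM in Abca4KO libraries 1, 2 and 3, against 3903, 3725 and 3356 CPM in WT libraries 1, 2 and 3. The groups did not overlap, yet Abca4KO 1 lay just above WT 1, and the Abca4KO libraries varied by 24.2% against 7.62% among the WT libraries. The mean was 5107 ± 1238 CPM in Abca4KO and 3661 ± 279 CPM in WT (SD, n = 3 each), 1.39 times the WT level (log2 fold change 0.48, SE 0.18, 95% interval 0.07 to 0.89; edgeR unadjusted p = 0.0287, adjusted p = 0.691). Without Abca4KO 2, the highest library, the edgeR log2 fold change was 0.28 (unadjusted p = 0.0881). The unadjusted p was also above 0.05 without Abca4KO 3 (0.0591) and without WT 3 (0.0758).

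Ftl1, the light chain that helps form the iron core, had overlapping groups. It measured 1436, 2030 and 1973 CPM in Abca4KO libraries 1, 2 and 3, against 1645, 1473 and 1221 CPM in WT libraries 1, 2 and 3. Abca4KO 1 lay below the upper 2 WT libraries, while Abca4KO 2 and 3 lay above all WT libraries. The log2 fold change was 0.33 (SE 0.17, 95% interval -0.06 to 0.71; edgeR unadjusted p = 0.0874, adjusted p = 0.755). Leaving out Abca4KO 1 gave an edgeR log2 fold change of 0.47 (unadjusted p = 0.0151), and leaving out WT 3 gave one of 0.22 (unadjusted p = 0.234). Without Abca4KO 2 it was 0.24 and without Abca4KO 3 it was 0.26. Both chains together took 0.538%, 0.844% and 0.693% of the scaled counts in Abca4KO libraries 1, 2 and 3, against 0.555%, 0.520% and 0.458% in WT libraries 1, 2 and 3. The ratio of Fth1 to Ftl1 CPM, not corrected for length, overlapped between genotypes at 2.81 ± 0.325 in Abca4KO and 2.55 ± 0.189 in WT (SD, n = 3 each).

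Macrophages are rich in ferritin, and their markers varied between libraries in a similar order, though with WT 2 above Abca4KO 1. The summed level of 14 macrophage and microglia markers was 3782, 6752 and 5167 CPM in Abca4KO libraries 1, 2 and 3, against 3039, 4209 and 2265 CPM in WT libraries 1, 2 and 3. Of these markers 10 had a positive log2 fold change (median 0.26), and none was at 0 in all libraries. Abca4KO 2 was highest in this sum and in both ferritins, and WT 3 lowest in all of them. Summed red blood cell markers were also highest in Abca4KO 2, at 2625 CPM, against 1139 and 1358 CPM in the other 2 Abca4KO libraries and 1163 to 1826 CPM in WT. Summed fibroblast and sclera markers ranked the 6 libraries as Fth1 did, from 2172 CPM in Abca4KO 2 down to 1398 CPM in WT 3. The part of any of these cell types in the ferritin values was not tested.

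Fth1 (ENSMUSG00000024661) lies at chr19:9982703-9985092 on the plus strand and Ftl1 (ENSMUSG00000050708) at chr7:45457944-45459884 on the minus strand. Ferritin genes have many processed copies. Among GENCODE M21 transcripts, 10 other genes had at least 90% identity to an Ftl1 coding transcript over at least 300 bases, and 7 of them held counts, 4609 in all or 2.52% of the Ftl1 count. Ftl1-ps1, 99.6% identical over 910 bases, held 3995 of these and measured 33.7, 40.3 and 43.8 CPM in Abca4KO against 35.9, 33.9 and 26.0 CPM in WT. How reads that match Ftl1 and a copy equally were counted is not stated, so the Ftl1 count is uncertain by an amount these counts do not bound. The opposite-strand gene Gm10252, 1 of the 7, shares 355 exon bases with it but held 28 counts. The only such copy of Fth1, Gm6977, held no counts.

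**Figure D2:**
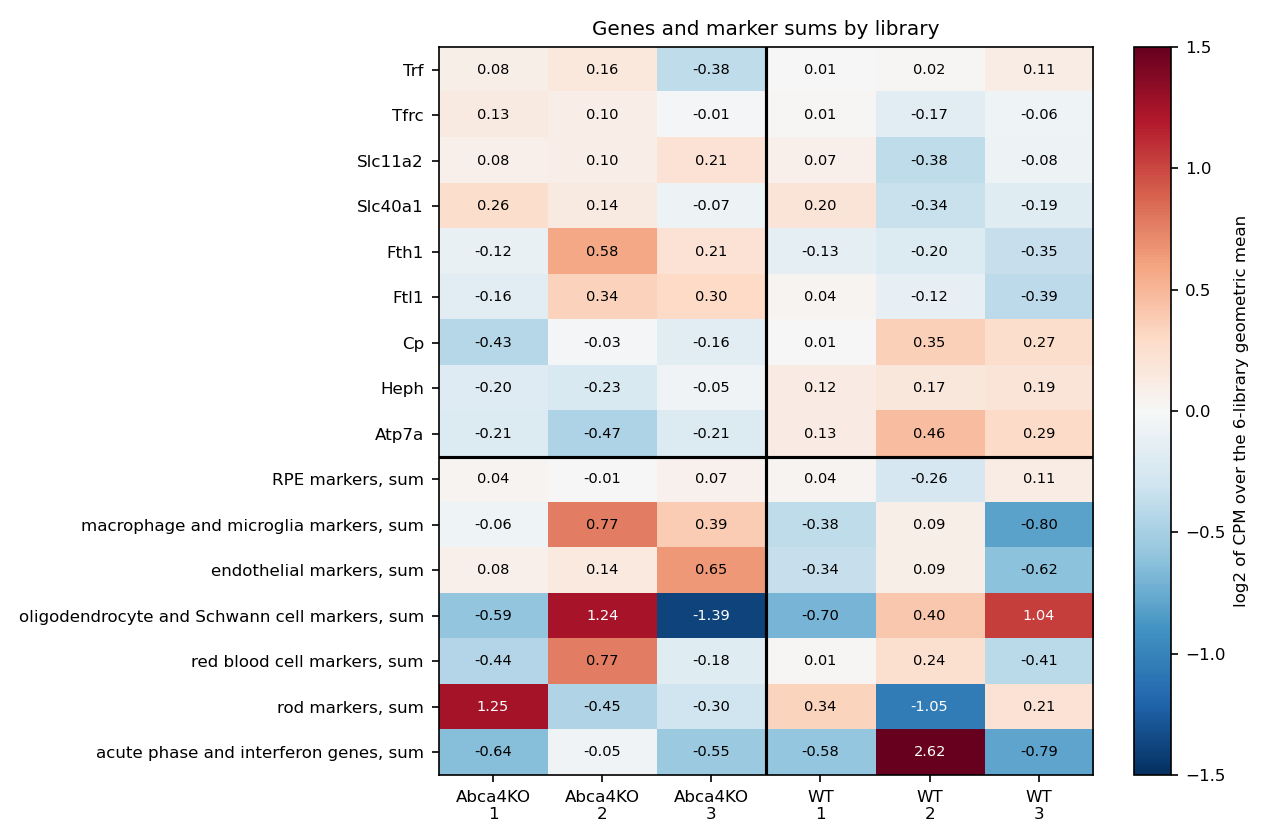
Rows are the 9 tested genes and, under the line, summed CPM of marker lists, columns are the 6 libraries with Abca4KO on the left, and each cell gives the log2 of the value over the geometric mean of the 6 libraries, with colour limited to 1.5 either way. Fth1 stands at 0.58 in Abca4KO 2, where the macrophage sum stands at 0.77, and the acute phase and interferon sum stands at 2.62 in WT 2.

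Of the iron uptake genes, Trf and Tfrc had overlapping groups. Trf, made by the RPE as well as by liver and by oligodendrocytes, measured 1018, 1073 and 741 CPM in Abca4KO libraries 1, 2 and 3, against 967, 975 and 1035 CPM in WT libraries 1, 2 and 3. Abca4KO 3 lay below all other libraries and the other 2 Abca4KO libraries on both sides of WT 3, so the groups overlapped. The log2 fold change was -0.07 (SE 0.14, 95% interval -0.40 to 0.26; edgeR adjusted p = 0.947), and without Abca4KO 3 it was 0.076. Summed oligodendrocyte and Schwann cell markers were 357, 1269 and 206 CPM in Abca4KO libraries 1, 2 and 3, against 332, 711 and 1108 CPM in WT libraries 1, 2 and 3, lowest where Trf was lowest and highest where Trf was highest. Their part in the Trf values was not tested. Trf (ENSMUSG00000032554) lies at chr9:103204001-103230444 on the minus strand, and the overlapping same-strand gene Gm20425, 98.0% identical over 2150 bases, held no counts.

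Tfrc, the receptor that carries iron-loaded transferrin into the cell, measured 75.6, 73.7 and 68.3 CPM in Abca4KO libraries 1, 2 and 3, against 69.6, 61.4 and 66.1 CPM in WT libraries 1, 2 and 3. WT 1 lay above Abca4KO 3, so the groups overlapped. The log2 fold change was 0.14 (SE 0.08, 95% interval -0.05 to 0.34; edgeR unadjusted p = 0.131, adjusted p = 0.782), and the interval holds differences of up to 0.34 on the log2 scale for this message with its 3′ hairpins. Tfrc (ENSMUSG00000022797) lies at chr16:32608920-32632794 on the plus strand.

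Slc11a2, which passes ferrous iron out of the endosome, measured 48.4, 48.9 and 52.9 CPM in Abca4KO libraries 1, 2 and 3, against 48.0, 35.1 and 43.3 CPM in WT libraries 1, 2 and 3. The groups did not overlap, though Abca4KO 1 and WT 1 were nearly equal. The log2 fold change was 0.25 (SE 0.12, 95% interval -0.04 to 0.54; edgeR unadjusted p = 0.0841, adjusted p = 0.746), and without WT 2, the lowest library, it was 0.13. Slc11a2 (ENSMUSG00000023030) lies at chr15:100387898-100425072 on the minus strand, and its opposite-strand neighbour Gm5475 shares 402 exon bases with it but held 6 counts. Slc40a1, the only known iron exporter of mammalian cells, measured 10.4, 9.55 and 8.25 CPM in Abca4KO libraries 1, 2 and 3, against 9.95, 6.87 and 7.62 CPM in WT libraries 1, 2 and 3. The groups overlapped, with 128 to 205 counts per library (log2 fold change 0.21, SE 0.20, 95% interval -0.27 to 0.69; edgeR adjusted p = 0.880). Without WT 2 the log2 fold change of Slc40a1 was 0.098, and without WT 1 it was 0.38. Slc40a1 (ENSMUSG00000025993) lies at chr1:45908068-45926523 on the minus strand.

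**Figure D3:**
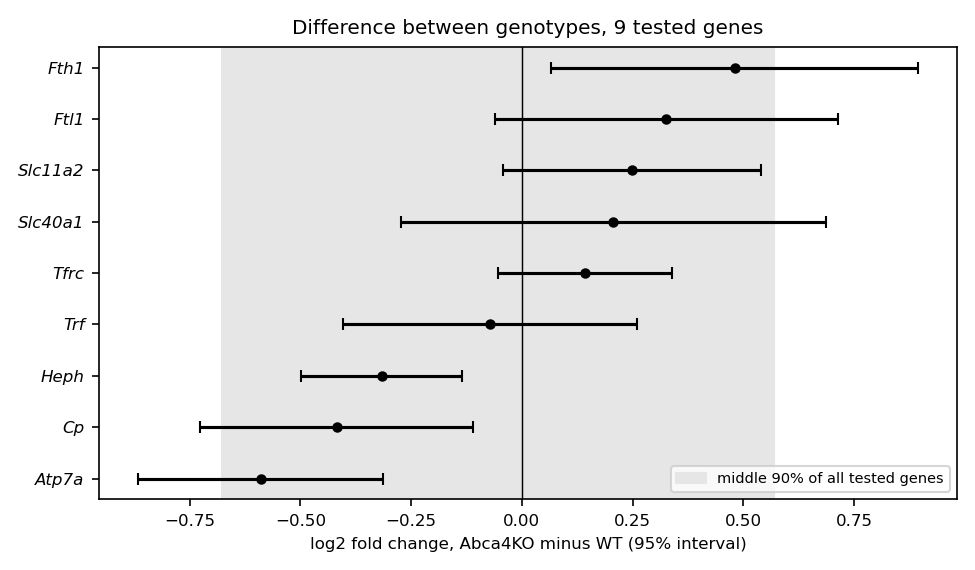
Points are log2 fold changes, Abca4KO minus WT, of the 9 tested genes with 95% intervals from edgeR's quasi-likelihood fit, and the grey band holds the middle 90% of all tested genes (-0.68 to 0.57). The intervals of Fth1, Heph, Cp and Atp7a leave out 0 and those of the other 5 hold it, and all 9 points lie inside the band.

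Per kilobase of the deposited gene length, levels spanned a wide range. Fth1 came first at 5897 ± 1429 CPM per kilobase in Abca4KO and 4228 ± 322 in WT, the 8th highest of all tested genes. Ftl1 followed at 1353 ± 244.6 CPM per kilobase in Abca4KO and 1079 ± 159.1 in WT (24th), and Trf at 284.4 ± 53.6 in Abca4KO and 298.8 ± 11.1 in WT (85th; SD, n = 3 each throughout). The iron store and the iron carrier were thus among the most abundant messages of this tissue. Heph at 14.8 ± 1.00 CPM per kilobase in Abca4KO and 18.4 ± 0.425 in WT, Cp at 10.6 ± 1.45 in Abca4KO and 14.1 ± 1.72 in WT, and Tfrc at 11.7 ± 0.606 in Abca4KO and 10.6 ± 0.663 in WT formed a middle group. Cp and Tfrc overlapped in the Abca4KO libraries (9.01 to 11.9 and 11.0 to 12.2 CPM per kilobase) and not in WT (12.2 to 15.6 and 9.93 to 11.3). Slc11a2 (7.61 to 8.33 CPM per kilobase in Abca4KO, 5.52 to 7.56 in WT) and Atp7a (4.87 to 5.85 in Abca4KO, 7.36 to 9.31 in WT) overlapped each other in WT only. The exporter Slc40a1 came last at 1.04 ± 0.120 in Abca4KO and 0.905 ± 0.178 in WT, above 21.5% of tested genes. With the length of the longest coding transcript in its place, Atp7a (12.3) and Slc11a2 (10.4) traded places over the 6 libraries. Heph (26.8) and Cp (25.9) came close, Tfrc (14.1) lay well below them, and the rest of the order was kept. Fth1 went from 5062 to 2934 CPM per kilobase, as its deposited length (866 bases) is shorter than that transcript (1494 bases). Ranks among all tested genes were not computed by transcript length. The overlaps of Cp with Tfrc and of Slc11a2 with Atp7a hold for the deposited lengths and were lost with the transcript lengths.

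**Figure D4:**
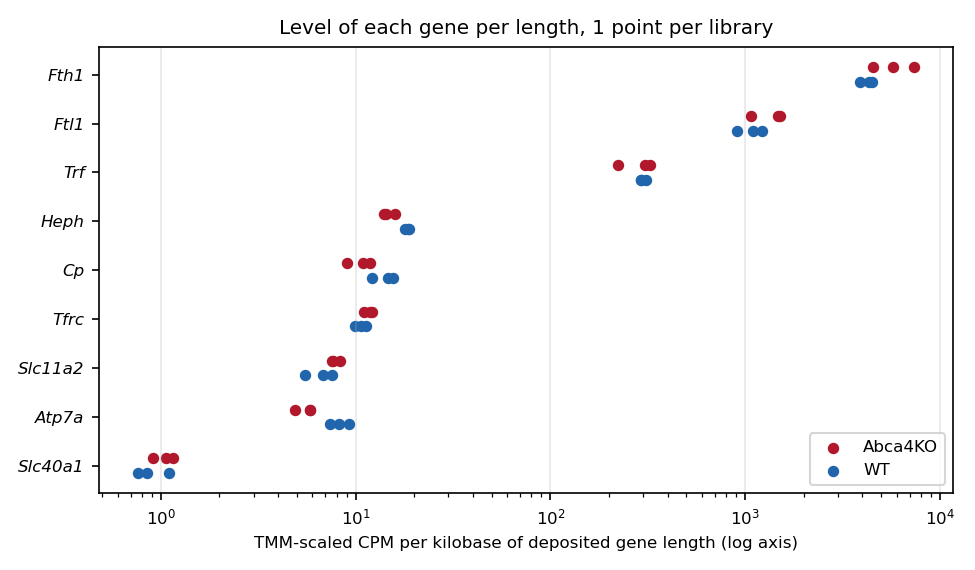
Genes are ordered by mean level, the horizontal axis is TMM-scaled CPM per kilobase of deposited gene length on a log scale, and each point is 1 library, Abca4KO (red) above WT (blue). Fth1, Ftl1 and Trf lie far to the right of the other 6 genes, and Slc40a1 lies near 1.

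Of 101 other tested iron and copper genes in 5 lists, 8 were higher and 2 lower at an unadjusted p under 0.05 (9.90%, against 7.02% of all tested genes). None passed the adjusted threshold in the main edgeR fit, while DESeq2 called 1, Lox. These lists were also written with earlier results of these data known, which limits a comparison with all genes. The list of iron import, reduction and intracellular transfer (24 tested, median log2 fold change 0.07) had 2 higher at that mark, Steap3, the reductase that prepares endosomal iron for DMT1 (50.5 ± 8.35 CPM in Abca4KO and 37.3 ± 5.54 CPM in WT, log2 fold change 0.44, edgeR adjusted p = 0.671), and Slc25a37, a mitochondrial iron importer (67.7 ± 10.9 CPM in Abca4KO and 54.5 ± 3.17 CPM in WT, log2 fold change 0.31, edgeR adjusted p = 0.701). Ncoa4, which hands ferritin to autophagy, measured 28.6 ± 1.58 CPM in Abca4KO and 30.3 ± 1.78 CPM in WT (log2 fold change -0.08, adjusted p = 0.897). Hmox1, which frees iron from haem, measured 33.0 ± 4.45 CPM in Abca4KO and 25.2 ± 6.71 CPM in WT with overlapping groups (log2 fold change 0.39, adjusted p = 0.759; SD, n = 3 each).

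In the list of iron sensing and hepcidin (17 tested, median log2 fold change 0.05), 2 genes were lower at that mark. Ireb2, the iron regulatory protein IRP2, measured 111.2 ± 8.99 CPM in Abca4KO and 129.9 ± 7.59 CPM in WT without overlap (log2 fold change -0.22, edgeR unadjusted p = 0.0367, adjusted p = 0.701). Neo1, a hemojuvelin receptor, measured 151.9 ± 5.88 CPM in Abca4KO and 186.8 ± 16.1 CPM in WT without overlap (log2 fold change -0.30, unadjusted p = 0.00997, adjusted p = 0.616). Aco1, the iron regulatory protein IRP1, measured 175.8 ± 7.58 CPM in Abca4KO and 199.0 ± 16.6 CPM in WT with overlapping groups (log2 fold change -0.18, adjusted p = 0.733). Fbxl5, which marks IRP2 for breakdown when iron is plentiful, measured 90.2 ± 7.95 CPM in Abca4KO and 85.9 ± 6.92 CPM in WT (log2 fold change 0.07, adjusted p = 0.921; SD, n = 3 each).

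Iron-sulphur cluster and haem synthesis genes had 20 positive log2 fold changes of 27 (74.1%, against 47.8% of all tested genes; median 0.04), with 1 at an unadjusted p under 0.05. In 4 of the 27 (14.8%, against 12.8% of all tested genes) the genotypes did not overlap. The 1 gene at an unadjusted edgeR p under 0.05 was Isca1, an assembly factor. It measured 212.6 ± 6.62 CPM in Abca4KO and 183.2 ± 9.20 CPM in WT (log2 fold change 0.21, adjusted p = 0.639). Ppox, an enzyme of haem synthesis, measured 35.9 ± 3.04 CPM in Abca4KO and 31.7 ± 1.03 CPM in WT (log2 fold change 0.18, adjusted p = 0.761; SD, n = 3 each).

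Among genes of copper uptake, chaperones and storage (18 tested, median log2 fold change 0.00), 1 met that mark. Cox17, the chaperone that brings copper to cytochrome oxidase, measured 9.03 ± 1.2 CPM in Abca4KO and 6.19 ± 0.204 CPM in WT (log2 fold change 0.54, adjusted p = 0.639), and Cox19, a related assembly factor, 27.5 ± 1.67 CPM in Abca4KO and 24.4 ± 1.52 CPM in WT. The copper importer Slc31a1 had a log2 fold change of -0.01 (95% interval -0.24 to 0.22; 182.1 ± 14.5 CPM in Abca4KO and 183.5 ± 17.8 CPM in WT). Atox1, the chaperone that delivers copper to ATP7A, had one of 0.16 (95% interval -0.12 to 0.44; 62.0 ± 6.62 CPM in Abca4KO and 55.3 ± 6.37 CPM in WT). Atp7b, the paralogue of Atp7a, was scarce at 5.35 ± 0.524 CPM in Abca4KO and 5.73 ± 1.81 CPM in WT (log2 fold change -0.10, 95% interval -0.77 to 0.57; SD, n = 3 each).

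The list of copper-dependent enzymes, which counts the cytochrome oxidase subunits Cox4i1 and Cox6a1 as parts of that complex, had the highest share at that mark. It was 4 of 16 tested (25.0%), against 7.02% of all tested genes. All 4 were higher in Abca4KO, where 3.15% of all tested genes met that mark as higher. The median log2 fold change of the list was 0.08. Lox, which crosslinks collagen and elastin, measured 38.0, 48.5 and 44.0 CPM in Abca4KO libraries 1, 2 and 3, against 28.1, 32.5 and 23.6 CPM in WT libraries 1, 2 and 3, without overlap (log2 fold change 0.63, SE 0.15, edgeR unadjusted p = 0.00298, adjusted p = 0.520). Cox6a1, a subunit of cytochrome oxidase, measured 134.1 ± 10.7 CPM in Abca4KO and 108.4 ± 2.10 CPM in WT (log2 fold change 0.31, edgeR adjusted p = 0.589; SD over 3 libraries each). The other 2 were Sod3 (0.41) and Moxd1 (0.63, both log2 fold changes). Summed fibroblast and sclera markers, cells that make Lox, were 1731, 2172 and 1823 CPM in Abca4KO libraries 1, 2 and 3, against 1692, 1650 and 1398 CPM in WT libraries 1, 2 and 3, and their part in these values was not tested.

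**Figure D5:**
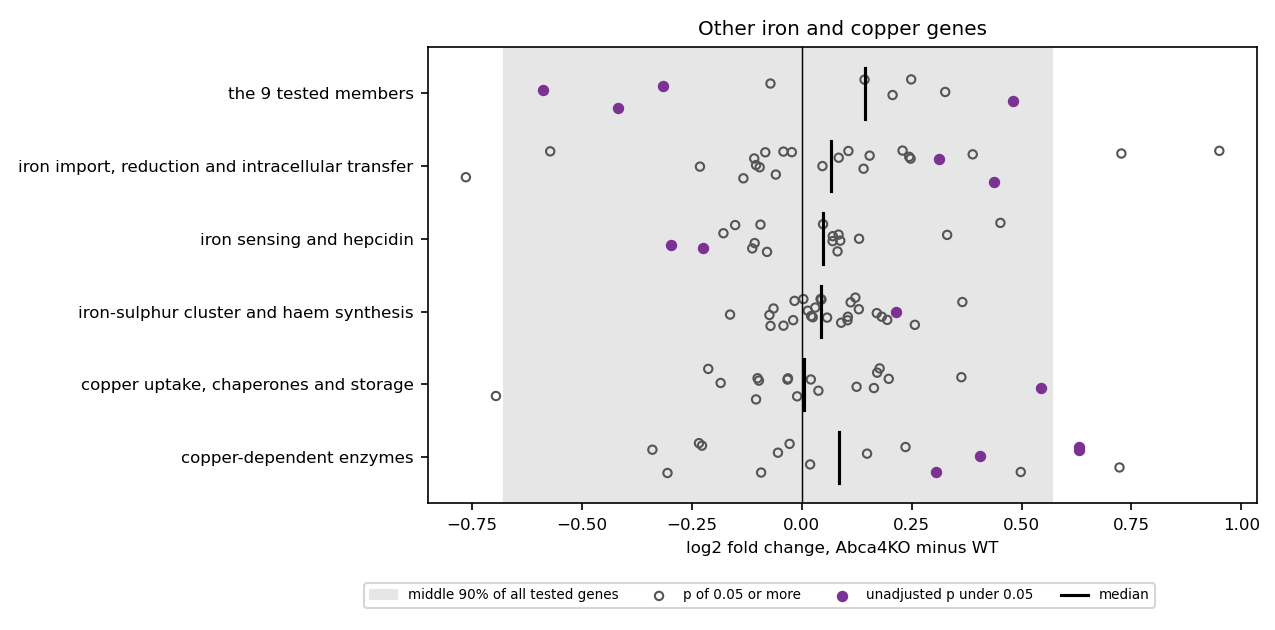
Each point is the log2 fold change, Abca4KO minus WT, of 1 tested gene, filled where the unadjusted edgeR p was under 0.05, with a bar at the median of each row and a grey band for the middle 90% of all tested genes. The medians of the 5 lists lie between 0.00 and 0.08, and the top row shows 3 filled points on the left (Atp7a, Cp, Heph) and 1 on the right (Fth1).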

How the data were processed

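RNA-seq libraries from the RPE of 3 Abca4KO and 3 WT mice were analysed. The authors deposited raw counts per gene, whole numbers with no normalization, beside a gene length (the other deposited column used). The submitters' processing notes name STAR, HTSeq and mm10, with no version. Neither the annotation release nor the strand setting is stated. Libraries were made from total RNA with the NEBNext Ultra kit, per the labels' protocols.

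Genes were filtered with filterByExpr (minimum count 10), scaled by TMM and tested with edgeR 4.0.16 (R 4.3.3), 2-sided quasi-likelihood test, no covariate, over all 17340 genes kept, with Benjamini-Hochberg adjustment and a threshold of 0.05. Log2 fold changes are Abca4KO minus WT with a prior count of 0.125. The SE is the absolute log2 fold change over the square root of F, and 95% intervals use the fit's degrees of freedom. The procedure was tested on simulated data. Alternatives were other size factors and filters, DESeq2 1.42.0, limma 3.58.1 with voom sample weights, a replicate block and each library left out. A fit without Abca4KO 1 and WT 2, and levels by transcript length, were added after the data were seen.

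The genes and lists were chosen with earlier results of these data known. Named beyond the set are Abca4, the 2 smallest p-values of each list and 9 genes fixed by role; Sod3, Moxd1, Hps3, Ftl1-ps1, Gm6977, Xist, Ddx3y and other overlapping or similar genes were added after their values were seen. No 2 libraries agreed within sampling noise (lowest chi-square per degree of freedom 12.6). Floors cover counting error only, since no molecular identifiers are mentioned for the reads. Of 54409 gene identifiers shared with GENCODE M21, 98.3% had identical coordinates, as did 9 of the 10 genes here, Fth1 being the exception. Coordinates are as deposited, and those of the hairpins are from GENCODE M21.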

Additional observations from a re-analysis of the deposited data

How the results depend on the processing

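With 3 libraries a genotype and no adjusted p under 0.05 among the 9 tested genes, the differences above rest on unadjusted p-values. No gene of the set passed in 14 of 15 other settings, the exception being DESeq2, which called 1, Atp7a. Of 135 log2 fold changes recomputed, 132 kept their direction and side of the threshold; Trf turned to 0.076 without Abca4KO 3 (-0.17 to 0.076 over the fits that leave out 1 library), and Slc40a1 to -0.038 with voom weights. Genes at an unadjusted p under 0.05 numbered 3 to 5 in each setting, where the share of all tested genes ran from 4.09% (DESeq2) to 16.9% (voom weights). Genes without overlap numbered 5 to 7 in the 12 settings that allow the count. Counts above 5 came only where libraries were left out, which makes non-overlap easier to reach. The share of all genes without overlap was not computed for those settings. Of the pathway lists, 1 gene, Lox, was called by DESeq2 and 1, also Lox, without both Abca4KO 1 and WT 2, and 0 with any 1 library left out. Over all genes, 8 calls became 19 with no filter, 106 with DESeq2, 31 with voom weights, 190 without both those libraries and 3 to 11 when 1 library was left out (3 without Abca4KO 2, 3 without Abca4KO 3, 4 without WT 1); the cause was not tested. With the replicate number as a block (replicate block), 9 genes were called, none of the set, and Atp7a had an adjusted p of 0.485. Same-numbered libraries had deviations from their group means correlated at 0.17, 0.34 and -0.08, so the numbers were not taken as pairs, and of the Abca4KO libraries only Abca4KO 2 correlated best with its own number. Abca4 had a log2 fold change of -4.78 to -4.65 and passed in every setting. Scaling choices moved the median of all genes by under 0.1 on the log2 scale. Hephl1, at or under 3 counts in every library, was too low to test.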
